A study of Saccharomyces cerevisiae with 4 samples.

Results

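The report covers 10 genes of budding yeast, Saccharomyces cerevisiae, that encode the histone variants and the regulators of histone gene expression. They were found by their systematic names, and all 10 were present among the 6688 genes of the deposited tables. They are HTZ1, HHO1 and CSE4 (the variants), HIR1, HIR2, HIR3 and HPC2 (the HIR complex), SPT10 and SPT21 (activators), and RTT106 (a histone chaperone). The tables hold polyadenylated RNA from exponentially growing cells in YPD, a rich glucose medium, with 2 libraries of the nhp6ab strain and 2 of the wild type (WT). The name nhp6ab is the usual one for a strain without NHP6A and NHP6B, which encode closely related HMG-box proteins that bend DNA and work with the histone chaperone FACT. The labels give neither the deleted bases nor the strain background, and leave unsaid whether the replicates came from separate cultures. P-values here therefore measure the spread between libraries, and that spread may be technical.

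Cells make most of their core histones in S phase, when DNA is copied. In budding yeast the core histone genes lie in divergent pairs, each pair with a shared promoter. Spt10 binds upstream activating sequences in these promoters and works with Spt21 to switch the genes on, whereas the HIR complex, a histone chaperone for H3 and H4, represses the pairs other than HTA2-HTB2 outside S phase and works there with Rtt106. The variants replace or supplement core histones at chosen places. H2A.Z (HTZ1) marks nucleosomes beside promoters, the centromeric H3 variant Cse4 marks the centromere, and Hho1 is the linker histone.

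The binding site of Spt10 is the sequence that links these regulators to their targets, and is shown for that reason. The motif searched was TTCCNNNNNNTTC, the core of the published Spt10 site, on both strands of the 500 bases before each start codon in the R64 reference. It was found before 8 of 8 core histone genes, before 1 of the 10 variant and regulator genes, and before 13.7% of 6000 protein-coding genes. Spt10 was already known to bind the core histone promoters, so the count before those genes is no test. A match describes the letters in the window and does not show binding. The matches are given 5′ to 3′ on the strand that reads TTCC first, with the letters fixed by the motif in capitals. HTA1 and HTB1 share a pair of matches, HPC2 has the match among the regulators, and each remaining histone pair shares 1 match:
HTA1-HTB1, first match (chrIV:915114-915126, plus strand): TTCCaaaattTTC
HTA1-HTB1, second match (chrIV:915139-915151, minus strand): TTCCaatagcTTC
HTA2-HTB2 (chrII:236110-236122, minus strand): TTCCcattatTTC
HHT1-HHF1 (chrII:255946-255958, minus strand): TTCCgagcgcTTC
HHT2-HHF2 (chrXIV:576348-576360, minus strand): TTCCgagcacTTC
HPC2 (chrII:653017-653029, plus strand): TTCCcgctgtTTC
The match before HPC2 begins 339 bases before its start codon.

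Other short motifs stood before some of the variant and regulator genes and before some core histone genes. The SCB core, CGCGAAA, is part of the site of SBF, the factor of Swi4 and Swi6 that acts late in G1. It was found before HHO1, CSE4, HIR2 and HIR3, which is 4 of the 10 genes, and before HTB1, HHT2 and HHF2, which is 3 of the 8 core histone genes, against 5.82% of all 6000. HHT2 and HHF2 share the same match in their common promoter, so they do not count as separate finds. The matches began 181, 163, 129 and 127 bases before the start codons of HHO1, CSE4, HIR2 and HIR3, in that order. The MCB, ACGCGT, is the site of MBF, the factor of Mbp1 and Swi6. It was found before SPT21 and RTT106, 234 and 130 bases before their start codons, and before HTA2 and HTB2 among the core histone genes, against 5.42% of all genes. HTA2 and HTB2 likewise share the same match. No match to any of the 3 motifs lay in the 500 bases before HTZ1, HIR1 or SPT10, which says only that these letters are not in that window. The SCB core was searched only as CGCGAAA, and other forms of the SBF site were not counted. No match overlapped a gene of the R64 annotation (RefSeq), which does not hold every counted identifier. None of the matches before the 10 genes overlapped another.

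**Figure D1:**
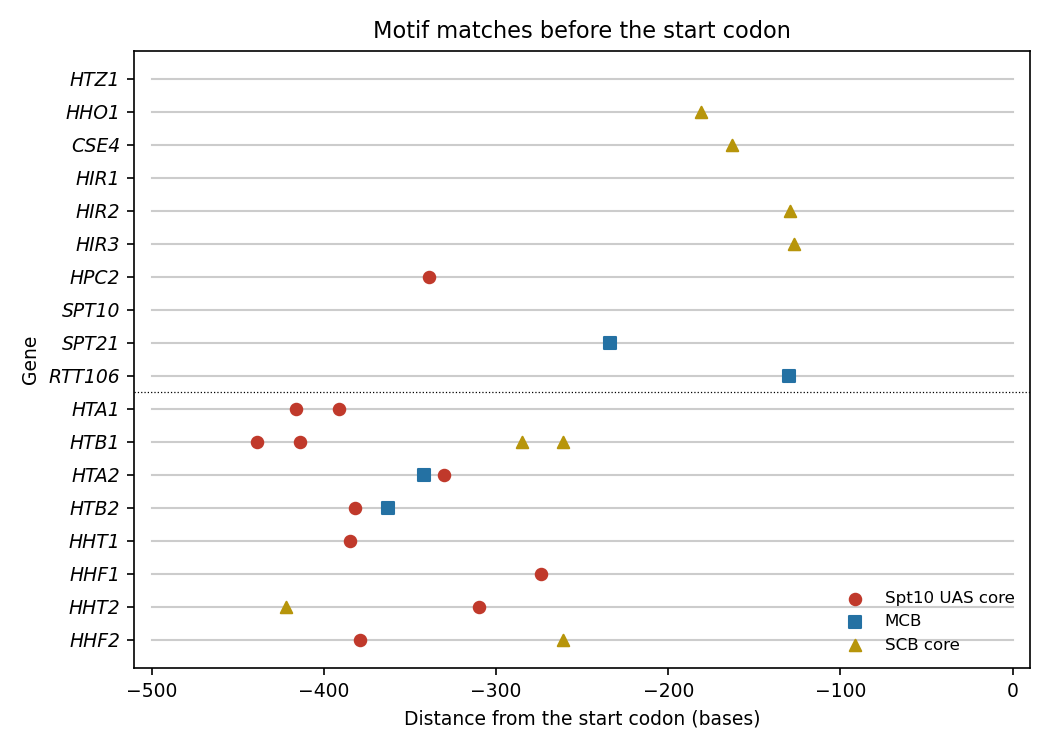
Matches to the Spt10 site core, the MCB and the SCB core, by distance in bases from the start codon, for the 10 variant and regulator genes (above the dotted line) and the 8 core histone genes (below it). Spt10 site cores stand before all 8 core histone genes and before HPC2, whereas SCB cores stand before HHO1, CSE4, HIR2 and HIR3 above the line and before HTB1, HHT2 and HHF2 below it.

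With libraries scaled by TMM factors in edgeR, HIR1 and HIR2 were the only called genes among the 10, in opposite directions. Other scalings, given below, called other genes. Because of the calls with TMM, the 300 bases before the start codons of HIR1 and HIR2 are shown. They are written in the direction of transcription and end at the base before the start codon, with the SCB core in capitals. HIR2 shares its upstream region with the divergent gene CKB2, and the HIR1 window holds the whole of the short reading frame YBL008W-A, which ends 4 bases before HIR1:
HIR1 (chrII:209353-209652, plus strand): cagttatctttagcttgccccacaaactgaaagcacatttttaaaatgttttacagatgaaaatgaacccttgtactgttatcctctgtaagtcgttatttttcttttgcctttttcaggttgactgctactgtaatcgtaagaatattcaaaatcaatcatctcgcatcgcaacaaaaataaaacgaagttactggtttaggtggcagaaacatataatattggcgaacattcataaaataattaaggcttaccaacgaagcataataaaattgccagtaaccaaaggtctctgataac
HIR2 (chrXV:405389-405688, minus strand): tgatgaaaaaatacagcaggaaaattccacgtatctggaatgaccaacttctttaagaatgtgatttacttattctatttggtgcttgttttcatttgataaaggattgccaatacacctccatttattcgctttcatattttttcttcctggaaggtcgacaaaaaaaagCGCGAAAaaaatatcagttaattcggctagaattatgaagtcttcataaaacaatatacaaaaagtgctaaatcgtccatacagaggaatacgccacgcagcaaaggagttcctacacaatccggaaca

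The libraries were deep and the strain check agreed in sign with the labels. Expected counts summed to between 22622592 and 29115870 per library, and the 10 genes had between 477 and 3968.5 expected counts each per library. Replicates correlated at 0.996 (nhp6ab) and 0.997 (WT) in log2(CPM + 1), against 0.974 to 0.978 across strains, and their spread exceeded counting noise (chi-square divided by its degrees of freedom, 22.4 for nhp6ab and 24.6 for WT). NHP6A had 11.1 and 12.0 CPM (counts scaled to a fixed library total with TMM factors) in nhp6ab, against 123 and 130 CPM in WT. NHP6B had 33.4 and 32.6 CPM in nhp6ab, against 80.0 and 86.0 CPM in WT, so that counts of both genes were lower but not absent in nhp6ab.

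The 10 genes spanned a wide range of levels, and kept the same order in 4 of 4 libraries. Levels of different genes were compared as TPM, the transcript share scaled to a fixed total, which corrects for gene length. HTZ1 was the most abundant, with 170 and 175 TPM in nhp6ab and 148 and 148 TPM in WT. HHO1 followed with 156 and 155 TPM in nhp6ab and 121 and 127 TPM in WT, and CSE4 had 58.2 and 60.9 TPM in nhp6ab and 43.7 and 44.8 TPM in WT. The variants thus stood above every regulator. RTT106 had 43.7 and 45.5 TPM in nhp6ab and 39.9 and 38.3 TPM in WT. HPC2 had 25.1 and 26.9 TPM in nhp6ab and 20.6 and 20.9 TPM in WT. SPT10, at 19.5 and 20.7 TPM in nhp6ab and 16.7 and 15.9 TPM in WT, was more than 2-fold above its partner SPT21, at 8.60 and 8.78 TPM in nhp6ab and 7.57 and 7.59 TPM in WT.

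The subunits of the HIR complex were unequal in level. Below HPC2 came HIR2 with 17.2 and 16.9 TPM in nhp6ab and 11.4 and 12.7 TPM in WT. HIR1 had 9.75 and 10.9 TPM in nhp6ab and 10.6 and 9.95 TPM in WT, and HIR3 was lowest of all with 6.72 and 6.86 TPM in nhp6ab and 5.61 and 5.40 TPM in WT. HPC2 stood 3.73 and 3.91-fold above HIR3 in nhp6ab and 3.68 and 3.87-fold in WT. Of the 9 neighbouring pairs in the order of the 10 genes, 0 overlapped in TPM between their libraries in nhp6ab and 0 in WT. In the ranking of all 6688 genes by TPM, HTZ1 lay above 87.1 to 87.7% of genes and HIR3 above 12.3 to 12.5%, over the 4 libraries.

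**Figure D2:**
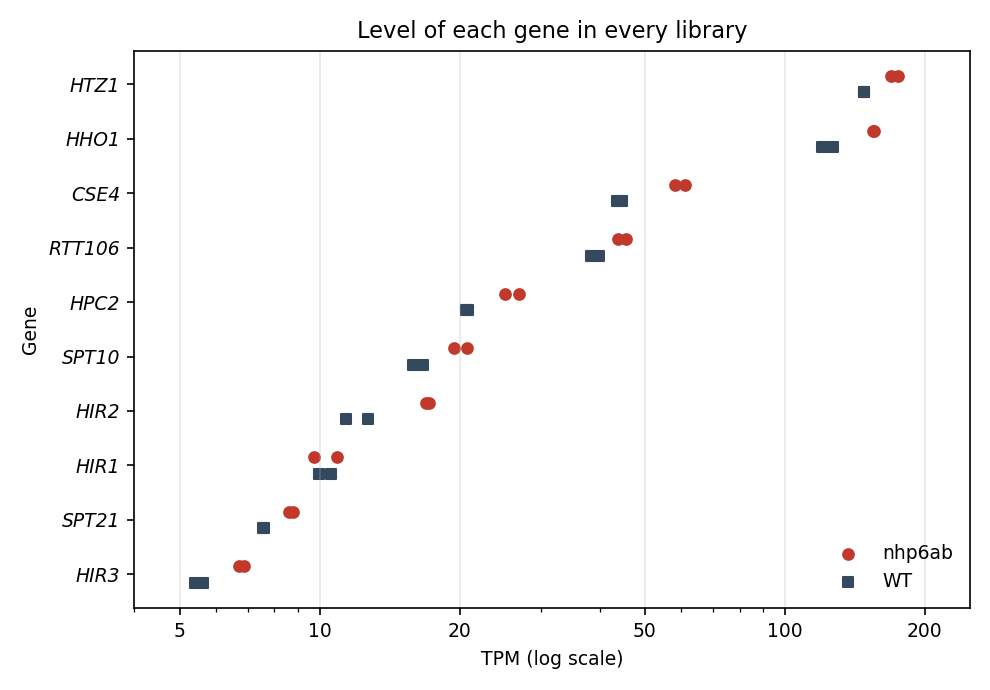
TPM (log axis) of the 10 genes in each library, with nhp6ab as circles above WT as squares. The order runs from HTZ1, at 148 to 175 TPM, down to HIR3, at 5.40 to 6.86 TPM, in every library, and HIR1 is the gene whose TPM ranges overlap between strains.

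The comparison of strains asked how these genes differ in nhp6ab cells from WT cells. With TMM scaling, 1 of the 10 genes was higher in nhp6ab, 1 was lower and 8 were not called. A call means an adjusted p below 0.05 by the quasi-likelihood test of edgeR. Of all 6422 genes tested, 49.5% were called, 24.5% higher and 25% lower. The median log2 fold change (nhp6ab over WT) was 0.01 for the 10 genes and 0.01 for all genes tested. With TMM, changes were below 0.2 in size on the log2 scale for 8 of the 10 genes, against 43.8% of all genes, a limit set after the values were seen. All genes include some with far fewer counts than these 10, and the shares were not compared at like counts. For 6 of the 10 genes the CPM of both libraries of one strain lay above both of the other, against 77.5% of all genes. For the 8 uncalled genes, the 95% intervals ran at their widest from 0.834-fold to 1.21-fold of WT, given TMM scaling, so larger changes lay outside the intervals.

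These directions hold relative to the scaling. The median log2 fold change over all genes was 0.22 when libraries were scaled by their size alone, and 0.28 on log2(TPM + 1). The 10 genes then held 6 called higher and 0 lower with library size alone, against 47.1% and 12.5% of all genes, and 7 higher and 0 lower on log2(TPM + 1), against 55.5% and 9.61%. Relative to those medians the 10 genes kept nearly the same places. HIR1 lay above 21.7% of all genes in log2 fold change with TMM, 21.8% with library size alone and 21.9% on log2(TPM + 1), and HIR2 above 73.0%, 72.9% and 72.3% in the same order. The share of the 10 genes with small changes moved with scaling as well. With library size alone only HTZ1, HIR1, SPT21 and RTT106 were below 0.2 in size (0.14, -0.07, 0.12 and 0.11). On log2(TPM + 1) only HIR1, SPT21 and RTT106 were (0.01, 0.18 and 0.19). The share of all genes below 0.2 was not counted with those scalings. The values below are those with TMM unless another scaling is named.

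**Figure D3:**
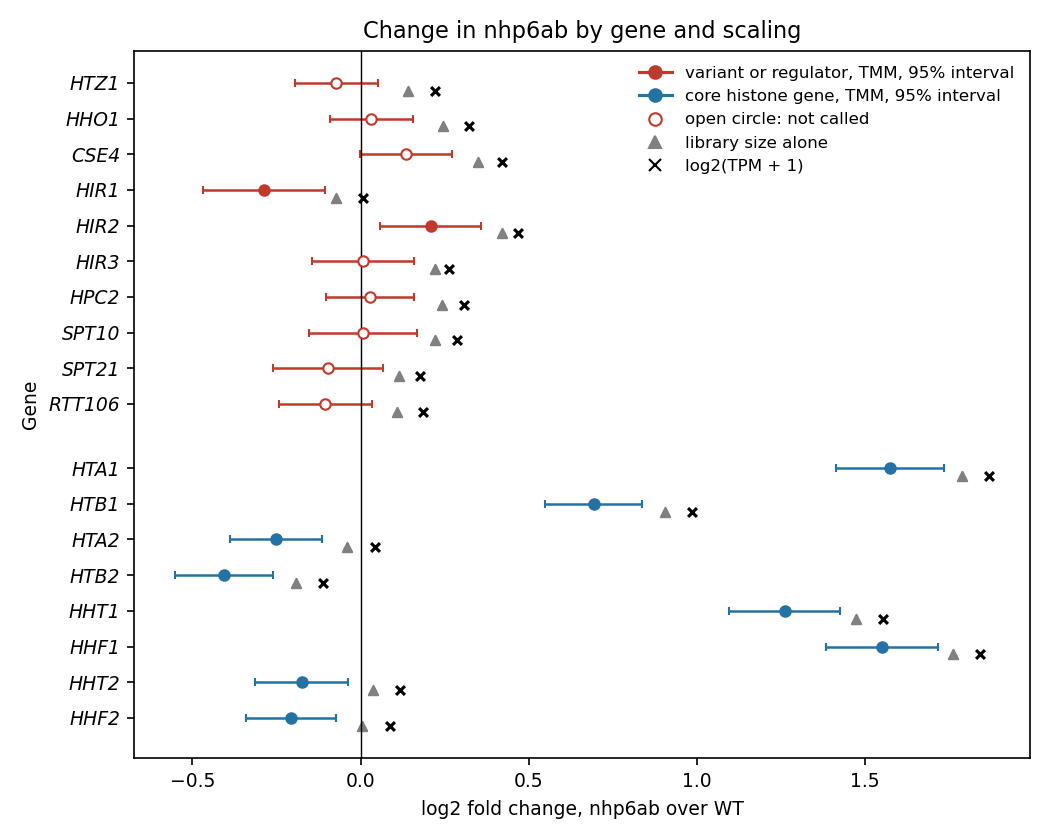
Log2 fold change, nhp6ab over WT, of the 10 variant and regulator genes (red) and the 8 core histone genes (blue). Circles and bars are the TMM fit with its 95% interval, filled where called, and triangles and crosses give the same change with library size alone and on log2(TPM + 1). The red circles lie between -0.29 (HIR1) and 0.21 (HIR2), whereas HTA1, HHF1 and HHT1 lie at 1.26 or more.

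Among the variants, none was called with TMM (coordinates here and below are of R64). HTZ1 (YOL012C; minus strand of chromosome XV, 303579 to 303983, 1 exon) had 70.0 and 70.4 CPM in nhp6ab, against 75.1 and 72.3 CPM in WT. Both nhp6ab libraries lay below both WT libraries, by little, and the log2 fold change of -0.07 ± 0.05 (SE) had an adjusted p = 0.283 in edgeR, with a sign that turned with library size alone (0.14) and on log2(TPM + 1) (0.22). HHO1 (YPL127C; minus strand of chromosome XVI, 308828 to 309604, 1 exon) had 129 and 125 CPM in nhp6ab, against 123 and 125 CPM in WT. The strains overlapped (0.03 ± 0.05, adjusted p = 0.640 in edgeR), and without nhp6ab replicate 1 the value was -0.00035. CSE4 (YKL049C; minus strand of chromosome XI, 346075 to 346764, 1 exon) had 42.6 and 43.4 CPM in nhp6ab, against 39.4 and 38.8 CPM in WT. Here the nhp6ab libraries lay above both WT libraries, with a log2 fold change of 0.14 ± 0.06, an unadjusted p of 0.0509 and an adjusted p = 0.0898 in edgeR. CSE4 and HHO1 were called higher with library size alone (adjusted p = 0.00310 and 0.00635 in edgeR), where the median gene was itself at 0.22. On log2(TPM + 1), HTZ1, HHO1 and CSE4 were each called higher (adjusted p = 0.0143, 0.00381 and 0.00169 in limma). The median gene stood at 0.28 there.

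The 4 genes of the HIR complex did not move together. HIR1 and HIR2 encode WD-repeat proteins, which in other eukaryotes correspond to a single protein, HIRA. HIR1 (YBL008W; plus strand of chromosome II, 209653 to 212175, 1 exon) had 27.1 and 29.6 CPM in nhp6ab, against 36.3 and 32.8 CPM in WT. The strains did not overlap, and HIR1 fell, by edgeR with an adjusted p = 0.0187 and a log2 fold change of -0.29 ± 0.08 SE. HIR2 (YOR038C; minus strand of chromosome XV, 402761 to 405388, 1 exon) had 49.8 and 47.8 CPM in nhp6ab, against 40.8 and 43.7 CPM in WT. The strains did not overlap here either, and HIR2 rose by 0.21 ± 0.06 (adjusted p = 0.0304 in edgeR).

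Neither call was robust to the choice of libraries. HIR1 was not called without WT replicate 1 (-0.21, adjusted p = 0.134 in edgeR) or without nhp6ab replicate 1 (-0.23, adjusted p = 0.0860), and over all alternatives its adjusted p ran from 0.00759 to 0.944. It was not called with library size alone (-0.07, adjusted p = 0.487) and stood at 0.01 on log2(TPM + 1), while the median of all genes stood at 0.28 there. Relative to the median gene, HIR1 was at -0.29 with TMM, -0.29 with library size alone and -0.27 on log2(TPM + 1). HIR2 was not called in DESeq2 (0.21, adjusted p = 0.0879), without WT replicate 1 (0.16, adjusted p = 0.143), without WT replicate 2 (0.26, adjusted p = 0.0550) or without nhp6ab replicate 1 (0.17, adjusted p = 0.110), and its adjusted p ran from 0.00146 to 0.143 over all alternatives. Relative to the median gene it was at 0.20 with TMM, 0.20 with library size alone and 0.19 on log2(TPM + 1).

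The ratio of HIR1 to HIR2 within a library does not depend on any scaling between libraries. In TPM it was 56.8% and 64.6% in nhp6ab, against 92.6% and 78.3% in WT. Both nhp6ab libraries lay below both WT libraries. With 2 libraries a strain no exact permutation test of such a ratio can reach p under 0.05, and none was made. The ratio was chosen after the values of the 2 genes were seen.

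HIR3 and HPC2, which encode the other subunits, were not called. HIR3 (YJR140C; minus strand of chromosome X, 690750 to 695696, 1 exon) had 36.9 and 36.7 CPM in nhp6ab, against 38.0 and 35.2 CPM in WT. Its nhp6ab libraries lay between the WT libraries (0.01 ± 0.06, adjusted p = 0.924 in edgeR, with a 95% interval from 0.906-fold to 1.12-fold), and the value turned to -0.01 with upper quartile factors. With library size alone HIR3 was called higher (0.22, adjusted p = 0.0265 in edgeR), where the median gene stood at 0.22. HPC2 (YBR215W; plus strand of chromosome II, 653356 to 655317, 2 exons), which had the match to the Spt10 site core, had 51.7 and 53.9 CPM in nhp6ab, against 52.5 and 51.1 CPM in WT. The strains overlapped for HPC2 as well (0.03 ± 0.06, adjusted p = 0.704 in edgeR, with a 95% interval from 0.930-fold to 1.12-fold), and it too was called higher with library size alone (0.24, adjusted p = 0.0154).

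The activators and Rtt106 were not called either. SPT10 (YJL127C; minus strand of chromosome X, 182298 to 184220, 1 exon), which encodes the factor that binds the histone promoters, had 41.2 and 42.6 CPM in nhp6ab, against 43.5 and 39.7 CPM in WT. The nhp6ab libraries lay between the WT libraries (0.01 ± 0.07, adjusted p = 0.934 in edgeR, with a 95% interval from 0.900-fold to 1.12-fold), and the value was -0.01 with upper quartile factors. It was called higher with library size alone (0.22, adjusted p = 0.0351 in edgeR). SPT21 (YMR179W; plus strand of chromosome XIII, 619858 to 622134, 1 exon), whose product acts with Spt10, had 21.6 and 21.4 CPM in nhp6ab, against 23.4 and 22.6 CPM in WT. RTT106 (YNL206C; minus strand of chromosome XIV, 256788 to 258155, 1 exon) had 65.2 and 66.0 CPM in nhp6ab, against 73.2 and 67.7 CPM in WT. For both SPT21 (-0.10 ± 0.07, adjusted p = 0.279) and RTT106 (-0.10 ± 0.06, adjusted p = 0.174 in edgeR) the nhp6ab libraries lay just below the WT libraries, and both signs turned with library size alone (0.12 and 0.11) and on log2(TPM + 1) (0.18 and 0.19, with RTT106 called there at adjusted p = 0.0425).

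The core histone genes, the targets of these regulators, differed by pair. Changes in the HTA1-HTB1 and HHT1-HHF1 pairs, and in HTB2 (-0.41), lay outside the range of the 10 genes. Of the 8 genes, 4 rose and 4 fell with TMM (median 0.26), beside 49.5% of all genes called, whereas library size alone gave 4 higher and 1 lower and log2(TPM + 1) gave 4 higher and 0 lower. HTA1 had 1194 and 1184 CPM in nhp6ab, against 419 and 380 CPM in WT (1.57 ± 0.07 on the log2 scale, adjusted p = 1.1e-05 by edgeR), and its divergent partner HTB1 had 370 and 382 CPM in nhp6ab, against 239 and 226 CPM in WT (0.69 ± 0.06). HHT1 rose by 1.26 ± 0.07 and HHF1 by 1.55 ± 0.07, so that each gene of the HTA1-HTB1 and HHT1-HHF1 pairs was higher under all 3 scalings. The genes of the other pairs, HTA2 (-0.25), HTB2 (-0.41), HHT2 (-0.18) and HHF2 (-0.21), were lower with TMM, but all except HTB2 lost the call with library size alone and all 4 on log2(TPM + 1). HTA2 also lost it without WT replicate 1 (adjusted p = 0.0651), HHT2 without WT replicate 1 (0.167), WT replicate 2 (0.0826) or nhp6ab replicate 1 (0.158), and HHF2 without any 1 of the 4 libraries (0.0529 to 0.0894). HHF1 and HHF2 are 97.4% identical over 312 bases, so reads may have been divided wrongly between them. HTA1 and HTA2 (93.7% over 399 bases), HHT1 and HHT2 (93.6% over 409) and HTB1 and HTB2 (88.8% over 384) are also alike. How reads were divided between such copies was not tested. By the rule of 95% identity over 50% of the gene, only HHF1 and HHF2 of the core histone genes had a near-identical copy. Of the 10 variant and regulator genes 0 had one. The longest match of HTZ1 was to HTA1, 73.5% identical over 181 of 405 bases.

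Set against the core histones within each library, the variant transcripts were a smaller share in nhp6ab. HTZ1 stood at 4.68% and 4.75% of HTA1 and HTA2 together, in TPM, in nhp6ab, against 9.79% and 10.2% in WT. The linker histone gene HHO1 stood at 4.29% and 4.19% of the same sum in nhp6ab, against 7.99% and 8.76% in WT. CSE4 stood at 1.48% and 1.43% of HHT1 and HHT2 together in nhp6ab, against 1.60% and 1.67% in WT. In each of the 3 ratios both nhp6ab libraries lay below both WT libraries. The sum of HTA1 and HTA2 was 3623 and 3693 TPM in nhp6ab, against 1509 and 1452 TPM in WT, and that of HHT1 and HHT2 was 3937 and 4253 TPM in nhp6ab, against 2728 and 2686 TPM in WT. These ratios were chosen after the values were seen and carry no test.

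**Figure D4:**
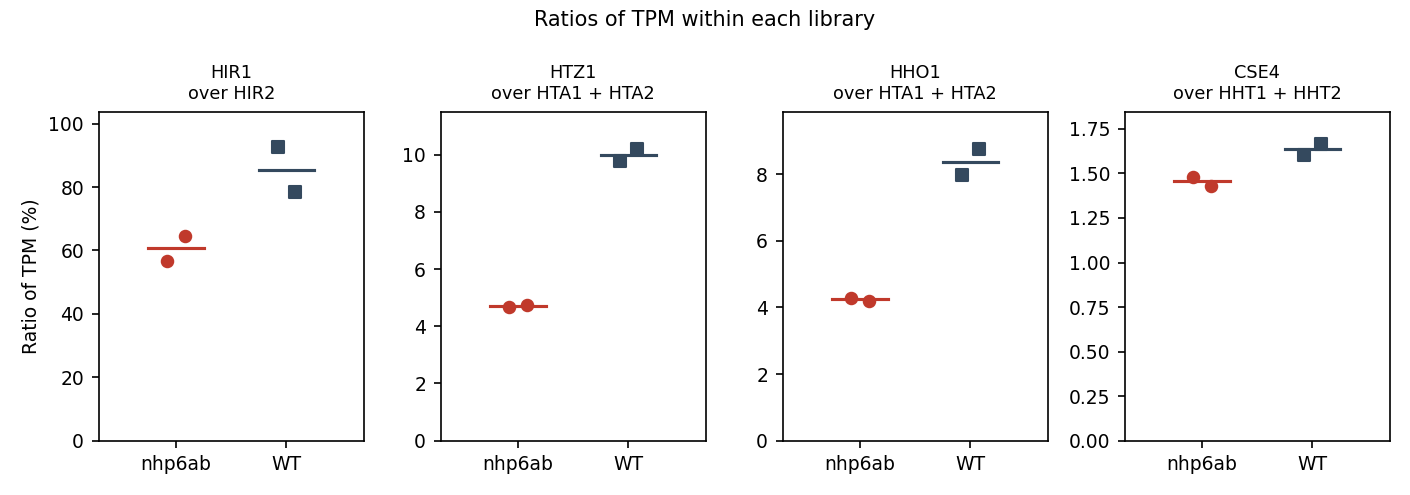
Ratios of TPM within each library, in percent, for nhp6ab (circles) and WT (squares), with a line at the mean of each strain. In each of the 4 panels both nhp6ab libraries lie below both WT libraries, from 56.8 and 64.6% against 92.6 and 78.3% for HIR1 over HIR2 to 1.48 and 1.43% against 1.60 and 1.67% for CSE4 over HHT1 plus HHT2.

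Genes that work with the variants and regulators were described by list, and their counts stand beside 24.5% of all genes called higher and 25% lower with TMM, and 47.1% and 12.5% with library size alone. Of 13 other regulators and chaperones of histone genes, 5 rose and 1 fell (median 0.00), against 8 higher and 0 lower with library size alone. The 6 called of 13 are near the 49.5% of all genes called with TMM. ASF1, which encodes an H3-H4 chaperone that binds the HIR complex, had 65.8 and 64.2 CPM in nhp6ab, against 52.3 and 49.9 CPM in WT (0.35 ± 0.05 SE, adjusted p = 0.00205 in edgeR). CAC2, for a subunit of the chaperone CAF-1, rose by 0.28 ± 0.05, and SWI4, for the DNA-binding subunit of SBF, rose by 0.34 ± 0.07, each without a call when WT replicate 2 was left out (adjusted p = 0.0566 and 0.0536). Of the variant and regulator genes with an SCB core, HHO1, CSE4, HIR2 and HIR3 had log2 fold changes of 0.03, 0.14, 0.21 and 0.01, with HIR2 called. The core histone genes with an SCB core, HTB1, HHT2 and HHF2, stood at 0.69, -0.18 and -0.21 and were called with TMM. HIR1 and the other core histone genes, without an SCB core in the window, were called with TMM as well. A link of SWI4 to these changes was not tested.

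Genes for the SWR1 complex, which puts Htz1 into nucleosomes, and for Htz1 chaperones were called about as often as genes at large. Among 15 genes 4 rose and 4 fell (median 0.09) with TMM, where 24.5% of all genes were higher and 25% lower, against 10 higher and 0 lower with library size alone, where the shares of all genes were 47.1% and 12.5%. SWR1, the ATPase of the complex, had 179 and 165 CPM in nhp6ab, against 93.1 and 91.1 CPM in WT. Its libraries lay well apart, and SWR1 rose by 0.90 ± 0.06 (adjusted p = 6.5e-05 in edgeR), beside SWC5 (0.44 ± 0.07) and RVB1 (0.29 ± 0.05), whereas HTZ1 itself stood at -0.07. SWC4, VPS71, YAF9 and ARP4 fell with TMM, and 0 members were called lower with library size alone.

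Of 12 genes for the deposition and turnover of Cse4 and for the inner kinetochore, 7 rose and 1 fell (median 0.19) with TMM, where 24.5% of all genes were higher and 25% lower, against 7 higher and 0 lower with library size alone, where the shares of all genes were 47.1% and 12.5%. CBF1, for a centromere-binding protein, rose by 0.33 ± 0.06, and CEP3, for a subunit of the CBF3 complex, by 0.31 ± 0.06, but CEP3 had no call when WT replicate 1 was left out (adjusted p = 0.0501). CTF19, for an inner kinetochore subunit, fell (-0.41 ± 0.09), without a call with library size alone, on log2(TPM + 1) or without either WT replicate (adjusted p = 0.0643 and 0.0630). Of 5 genes for the turnover and surveillance of histone mRNA, PAT1, a decay factor, rose with TMM (0.30 ± 0.06, adjusted p = 0.00438 in edgeR) and 4 were not called (list median -0.04). With library size alone 3 of the 5 were called higher and 0 lower, where the shares of all genes were 47.1% and 12.5%.

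**Figure D5:**
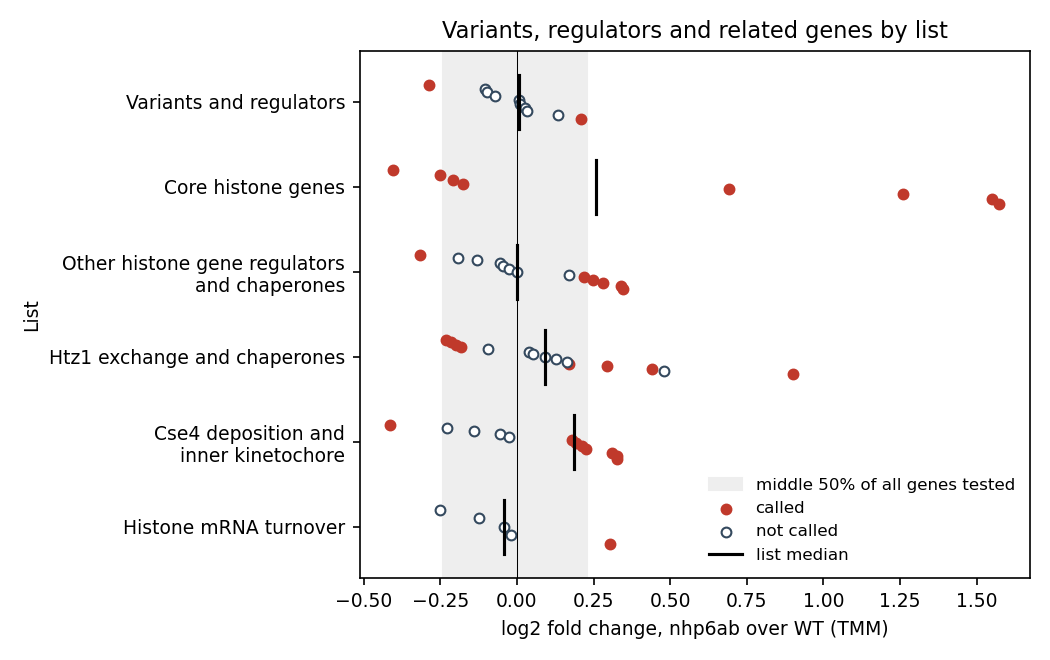
Log2 fold change, nhp6ab over WT with TMM, of each gene in the 6 lists, with called genes filled, uncalled genes open, list medians as black lines and the middle 50% of all genes tested in grey. The variants and regulators stay between -0.29 and 0.21, whereas the core histone genes reach 1.57 and SWR1 reaches 0.90.

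The neighbours of the 10 genes on the chromosomes were looked at because the sources do not say whether counting used strand, so that reads of a neighbour could be mixed in. In the R64 annotation (RefSeq) 0 genes overlapped a member of the set. Only 5986 of the 6688 counted identifiers matched that annotation, so overlap with the rest was not checked. Of the 20 adjacent genes in it, 1 rose, 3 fell and 16 were not called, beside 49.5% of all genes called. CYC2, a convergent gene that ends 105 bases from HIR2, had 24.9 and 25.3 CPM in nhp6ab, against 31.1 and 30.4 CPM in WT. It fell (-0.29 ± 0.06) while HIR2 rose, and CKB2, across the promoter that HIR2 shares, stood at 0.03 and was not called. IPA1, which lies divergent to HIR3 across 209 bases, fell (-0.34 ± 0.06) while HIR3 stood at 0.01. HRD1, downstream of HTZ1, fell (-0.26 ± 0.07) and SDS24, upstream of HPC2, rose (0.22 ± 0.06). The decreases of CYC2, IPA1 and HRD1 were not called with library size alone or on log2(TPM + 1). Those of CYC2 and HRD1 were not called without WT replicate 1 (CYC2, adjusted p = 0.0523) or WT replicate 2 (HRD1, 0.135), and SDS24 was not called without WT replicate 1 (0.0539), WT replicate 2 (0.0970) or nhp6ab replicate 1 (0.0722). The short reading frame YBL008W-A next to HIR1 had at most 0.589 CPM in any library.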

How the data were processed

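Polyadenylated RNA of 2 nhp6ab and 2 wild-type libraries was measured by RNA-seq, and libraries were grouped by their titles. The authors deposited RSEM expected counts per gene and RSEM TPM values, named so by the deposited sheets. Per the submitters' processing notes, reads were placed on sacCer3. Not given in the sources used here are the aligner, RSEM version, annotation and strand setting. In the deposited values, expected count over TPM followed the R64 coding length of the 10 genes less 36.5 bases, so TPM refers to coding length. The tables hold 6688 identifiers and 4 empty lines, and 5986 identifiers matched the nuclear R64 annotation (RefSeq), which gave symbols, coordinates and sequences.

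After rounding, expected counts were analysed by edgeR 4.0.16 under R 4.3.3, with TMM factors (1.06 and 1.10 in nhp6ab and 0.924 and 0.934 in WT) and no block. The default filter removed low genes (count 10, total 15). The fit left 2 residual degrees of freedom. After variance was moderated across genes, the quasi-likelihood test had 5.95 to 6.95 degrees of freedom in total. Benjamini-Hochberg adjustment ran over 6422 genes, with calls below 0.05. SE is the log2 fold change over the square root of F, and 95% intervals use the total degrees of freedom. The fits were also run on simulated data with few planted changes, equal in number up and down. That simulation cannot show how the scalings behave where many genes differ, as in these data. Copies were sought with BLAST 2.17.0 (95% identity over 50% of the gene), and motifs and figures used Python 3.11.15 with matplotlib 3.10.9. Alternatives used DESeq2 1.42.0, limma 3.58.1, other scalings, filters and pseudocounts of 1 and 0.1 on TPM, a replicate block, and each library left out.

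The 10 genes and the lists were chosen with earlier results of these data known. Genes named were the 10, NHP6A, NHP6B, the core histone genes, adjacent genes, and from each list up to 3 called genes, taken by adjusted p. SWC4, VPS71, YAF9 and ARP4 were named after their values were seen.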

Additional observations from a re-analysis of the deposited data

How the results depend on the processing

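Scaling moved the counts most. With library size alone, 3023 genes were called higher and 800 lower, on log2(TPM + 1) 3566 and 617, and on log2(TPM + 0.1) 3558 and 614. Of the 10 variant and regulator genes, 6, 7 and 7 were then called higher and 0 lower in each case, and DESeq2 called 0 higher. With 1 library left out, 901 to 1462 genes were called higher and 1063 to 1557 lower, and of the 10 genes 0 to 1 were higher and 0 to 1 lower. A lone library of a strain is assumed there to vary like the other strain's. With library size alone, on log2(TPM + 1) and on log2(TPM + 0.1), the log2 fold change of HTZ1 turned to 0.14, 0.22 and 0.22, that of SPT21 to 0.12, 0.18 and 0.19, that of RTT106 to 0.11, 0.19 and 0.19, that of HHT2 to 0.038, 0.12 and 0.12 and that of HHF2 to 0.0049, 0.086 and 0.086. On the 2 TPM scales alone HIR1 turned to 0.0084 and 0.0090, HTA2 to 0.042 and 0.042, HRD1 to 0.034 and 0.035, and CYC2 to 0.0023 and 0.0024. With upper quartile factors HIR3 stood at -0.0072 and SPT10 at -0.0079. With 1 library left out, HHO1 ran from -0.00035 to 0.055, HIR3 from -0.045 to 0.066, HPC2 from -0.0028 to 0.049 and SPT10 from -0.054 to 0.075. The median of all genes moved with these scalings too, to 0.22, 0.28 and 0.30, where it was 0.01 with TMM. For the other turns the cause was not tested.

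Over 34 named genes, settings other than leaving out a library kept direction and call in 356 cases, lost the call in 14, gained one in 13 and turned the sign in 25. Leaving out 1 library kept both in 107 cases, lost the call in 23 and turned the sign in 6. The replicate numbers may name no shared culture. Deviations of same-numbered libraries correlated at -0.07 over genes. With the replicate block 1626 genes were called higher and 1686 lower, HIR1 (-0.29) and HIR2 (0.21) kept their calls, and HHT2 lost its call (adjusted p = 0.0601 in edgeR). Each of the 10 genes had at least 477 expected counts per library, and the parts of counting error and of the number of libraries in the width of the intervals were not tested.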
